A study of Mus musculus with 4 samples.

Results

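The 34 genes described here encode the glucose carriers, the enzymes of glycolysis, the enzymes and carriers of lactate, and the proteins that let pyruvate into the mitochondrion and its dehydrogenase. They were chosen by gene symbol from their roles, with earlier results of these data known, and all 34 had a row in a table of reads per gene that held 24527 genes. RNA was sequenced from B16F10 cells, a mouse melanoma line that grows in C57BL/6 mice, in 4 conditions with 1 library each. The study asked how closely a spheroid of melanoma cells and fibroblasts resembles a tumor grown in mice.

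The spheroid library came from B16F10 cells grown with NIH/3T3 cells, a line of mouse fibroblasts, in drops of medium. The 2D co-culture library came from B16F10 cells grown flat with the same fibroblasts, and the 2D monoculture library from B16F10 cells grown flat and alone. According to the methods, the B16F10 cells of the cultures carried green fluorescent protein and were sorted by it from live cells, and the labels give the genotype of all 4 samples as WT. The tumor library came from tumors that grew under the skin of year-old female C57BL/6 mice. The methods describe its cells as sorted, whereas its label describes snap frozen tumor. The stock of B16F10 cells was kept in RPMI medium and the spheroids in DMEM, and no source used here gives the glucose content of the media. RNA extraction is described with an n of 3, and no source used here says whether that RNA was pooled into 1 library. With 1 library per condition no difference has a replicate check, no p-value can be given, and every interval below is a 95% interval of counting error only.

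In glycolysis a cell splits glucose into pyruvate, with a small yield of ATP. Pyruvate then either becomes lactate, which leaves the cell through monocarboxylate transporters, or enters the mitochondrion and becomes acetyl-CoA through the pyruvate dehydrogenase complex. Many tumors send much of their glucose to lactate even when oxygen is present, and the hypoxia-inducible factor HIF-1 and MYC are known to raise the transcription of many of these genes.

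Read totals lay between 118896900 and 150028663. Values are CPM, reads on a gene after every library is brought to the same size, scaled between libraries with TMM factors that ran from 0.908 in the spheroid to 1.16 in the tumor. Melanocyte genes were abundant in every library, where 8 markers summed to at least 15173 CPM, in the spheroid, and at most 26341 CPM, in the 2D monoculture. The tumor library also held RNA of other cells: 11 skeletal muscle markers summed to 6503 CPM there and to between 3.84 and 17.8 CPM in the cultures, 12 myeloid markers to 2167 CPM against 10.8 to 30.0, and 4 adipocyte markers to 222 CPM against 0.197 to 0.448. The 9 fibroblast markers summed to 2728 CPM in the tumor and 679 in the 2D co-culture, whereas the spheroid had 36.5 and the 2D monoculture 17.6. In such libraries fewer cells of a type and less RNA per cell cannot be told apart. The log2 ratios also moved with the GC content of the transcripts: across 12466 genes Spearman's correlation was 0.48 for spheroid over 2D monoculture, -0.39 for tumor over 2D monoculture, 0.54 for spheroid over tumor, 0.40 for spheroid over 2D co-culture and 0.21 for 2D co-culture over 2D monoculture.

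The genes took a larger share of the spheroid library than of any other. They held 2.83% of its reads (2.83 to 2.83), against 2.40% in the tumor, 2.19% in the 2D monoculture and 2.08% in the 2D co-culture. Most of this excess was 1 gene, Aldoa, at 11688 CPM in the spheroid and between 3558 and 4581 CPM elsewhere. A mean over the libraries of 1 CPM or more was reached by 33 of the genes, and 14 of these (42.4%) had their highest level in the spheroid, as did 34.7% of all 12728 genes with such a mean. Another 11 (33.3%) were highest in the tumor, beside 31.0% of all genes, 4 in the 2D monoculture, beside 18.5%, and 4 in the 2D co-culture, beside 15.8%. The lowest level lay in the tumor for 10 of the genes, beside 39.6% of all genes, in the 2D monoculture for 9, beside 18.6%, in the spheroid for 8, beside 30.5%, and in the 2D co-culture for 6, beside 11.3%.

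The pathway did not move as a block, and the direction turned with the step. From glucose uptake to aldolase and triosephosphate isomerase, the summed level of each step was highest in the spheroid, except for hexokinase, which was lowest there. At the end of the pathway the order was different. Lactate dehydrogenase, Pdha1 as the only gene of pyruvate dehydrogenase in the set, and its phosphatase were lowest in the spheroid and highest in the tumor. Lactate and pyruvate carriers were highest in the spheroid. Part of this order depended on GC content. Log2 ratios to the 2D monoculture were also taken with the median ratio of genes of like GC content and length removed. The tumor then stood above the spheroid for phosphofructokinase (0.57 against -0.25) and triosephosphate isomerase (0.46 against 0.24). For uptake the tumor had 0.59 and the spheroid 0.48, but spheroid over tumor, corrected directly, was 0.08. The medians are removed for each comparison by itself, so the order of these libraries in uptake is not settled. The spheroid remained highest for glucose-6-phosphate isomerase (0.48), aldolase (0.79) and the carriers of lactate (0.79) and pyruvate (0.55), and lowest for hexokinase (-0.96) and lactate dehydrogenase (-0.36). For the phosphatase it remained lowest (-0.48), but the tumor was then below the 2D monoculture (-0.15). For Pdha1 the spheroid also remained lowest, but its log2 ratio to the 2D monoculture went from -0.85 to -0.15.

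**Figure D1:**
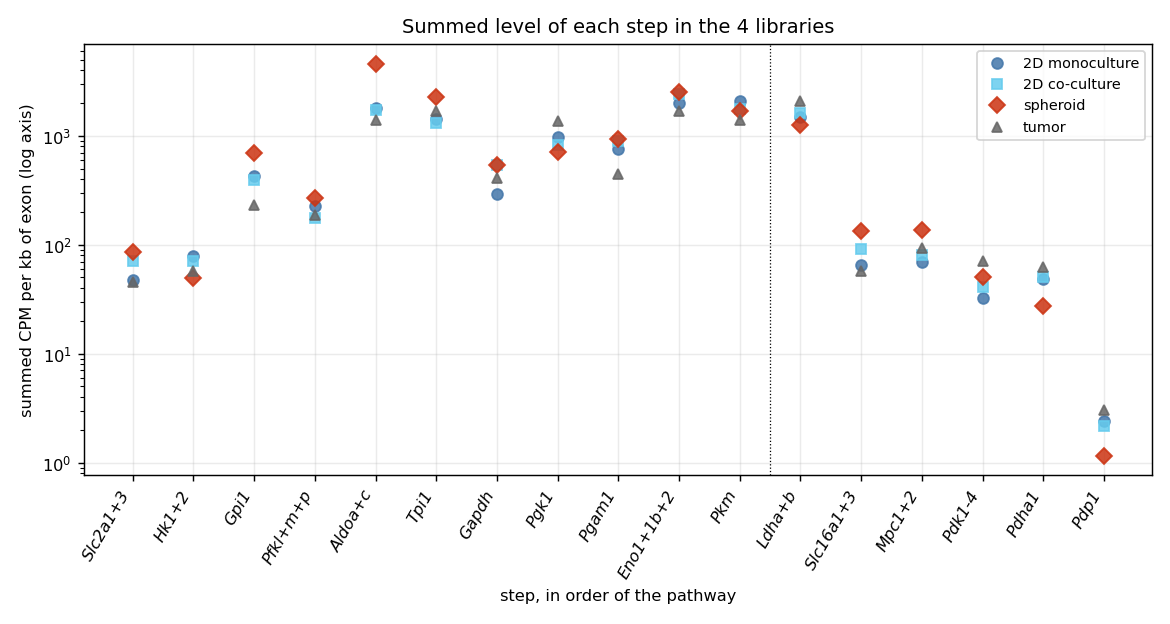
Summed CPM per kb of exon (log axis) of the genes of each step, in pathway order, with 1 point per library and glycolysis left of the dotted line. The aldolase step stood at 4597 CPM per kb in the spheroid and between 1409 and 1798 in the other libraries, and the Ldha and Ldhb sum at 1249 in the spheroid and 2086 in the tumor.

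Counts of genes past 2-fold are made on log2 ratios with 1 CPM added to each value. Against the 2D monoculture, 6 of 33 genes were over 2-fold higher in the spheroid and 3 over 2-fold lower, while 11.2% and 17.9% of all 12728 genes were. In the 2D co-culture 1 gene was higher and 3 were lower, beside 3.79% and 9.51% of all genes. In the tumor 4 were higher and 2 lower, beside 14.8% and 18.2%. For spheroid, 2D co-culture and tumor, the median log2 ratio over the 33 genes was 0.36, -0.01 and 0.06, where the medians of all genes were 0.05, 0.01 and -0.14. These 3 comparisons share the 2D monoculture library, so a low or high value there enters all of them. Most genes stayed within 2-fold of the 2D monoculture. Past 2-fold in either direction were 9 in the spheroid (29.1% of all genes), 4 in flat co-culture (13.3%) and 6 in the tumor (33.1%).

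**Figure D2:**
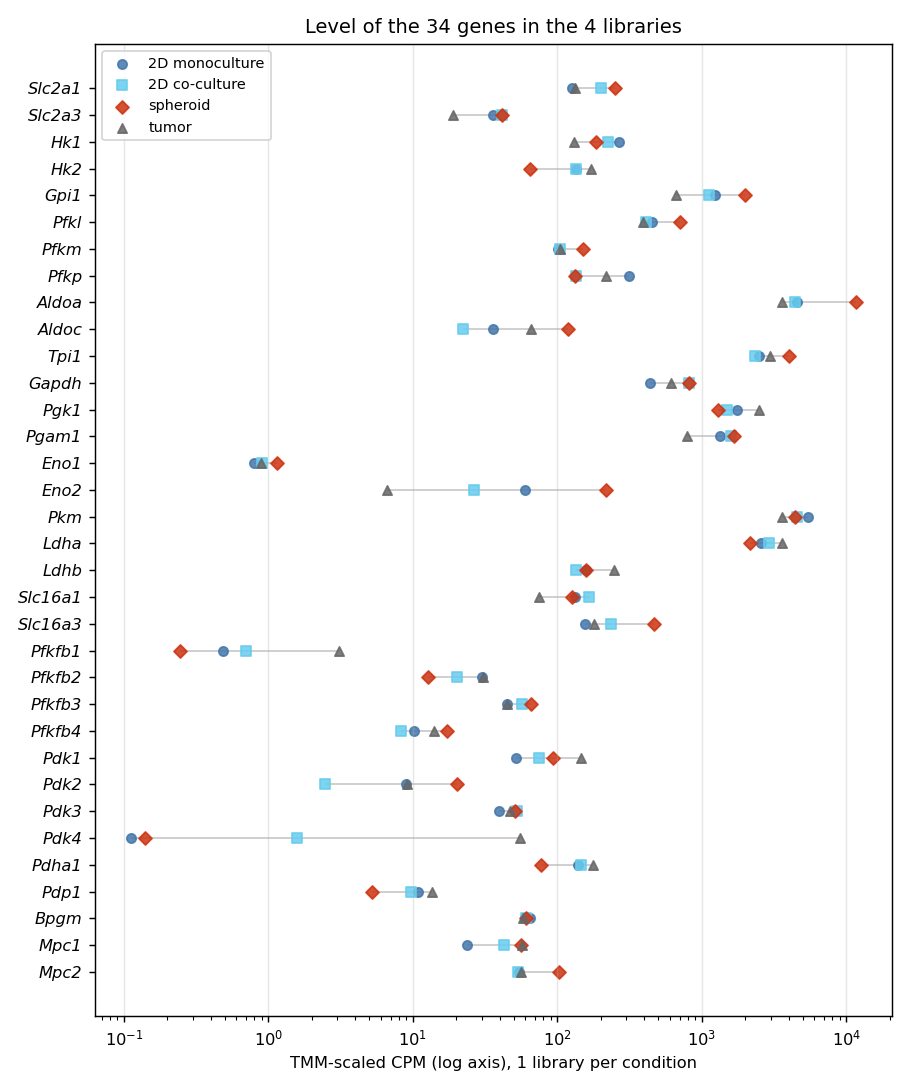
TMM-scaled CPM (log axis) of the 34 genes in the 4 libraries, 1 point per library, joined by a line across the range. Levels of different genes are not set per length here. Eno2 and Pdk4 span the widest ranges among genes over 10 CPM in any library, from 6.59 to 216 CPM and from 0.112 to 55.5 CPM.

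Promoters of 4 of the genes are printed because the same short motif, the core of the HIF binding site, stands in genes that differed in opposite ways; they were picked after their values were seen, and of a gene with several windows the one with most matches of ACGTG is shown. Each window runs from 250 bases before to 50 bases after an annotated transcript start, on the plus strand of GRCm38.p6 (RefSeq), and capitals mark ACGTG, its variant GCGTG and the E-box CACGTG on either strand, with overlapping matches both counted. Slc16a3 (chr11:120948817-120949116) has 2 matches of ACGTG, Aldoc (chr11:78322823-78323122) has 1 of ACGTG and 2 of GCGTG, and both genes were highest in the spheroid. Ldha (chr7:46845554-46845853) has 5 matches of ACGTG, of which 4 lie in 2 copies of CACGTG, besides 2 of GCGTG, and Pgk1 (chrX:106186850-106187149) has 2 of ACGTG. Both of these genes were highest in the tumor and lowest in the spheroid. The contrast depended in part on GC content. With the median ratio of genes of like GC content and length removed, spheroid over tumor was 0.42 for Aldoc but -0.13 for Slc16a3. For Ldha and Pgk1 it was -0.88 and -0.93.
Slc16a3: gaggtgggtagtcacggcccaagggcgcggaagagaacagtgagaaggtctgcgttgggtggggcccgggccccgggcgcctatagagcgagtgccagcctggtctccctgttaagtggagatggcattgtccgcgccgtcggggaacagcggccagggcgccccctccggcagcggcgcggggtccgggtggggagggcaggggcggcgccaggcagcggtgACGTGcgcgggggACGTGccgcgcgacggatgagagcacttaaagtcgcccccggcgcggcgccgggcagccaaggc
Aldoc: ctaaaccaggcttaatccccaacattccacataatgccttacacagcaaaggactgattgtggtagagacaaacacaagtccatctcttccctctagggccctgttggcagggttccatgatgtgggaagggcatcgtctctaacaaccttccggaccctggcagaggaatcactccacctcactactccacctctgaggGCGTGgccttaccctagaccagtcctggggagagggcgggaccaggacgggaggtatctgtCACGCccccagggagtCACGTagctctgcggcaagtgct
Ldha: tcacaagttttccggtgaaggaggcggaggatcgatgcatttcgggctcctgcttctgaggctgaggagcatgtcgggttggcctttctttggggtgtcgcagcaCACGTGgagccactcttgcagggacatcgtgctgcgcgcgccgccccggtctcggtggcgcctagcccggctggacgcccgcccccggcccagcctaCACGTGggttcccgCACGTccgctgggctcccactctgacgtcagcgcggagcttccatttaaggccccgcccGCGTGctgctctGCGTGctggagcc
Pgk1: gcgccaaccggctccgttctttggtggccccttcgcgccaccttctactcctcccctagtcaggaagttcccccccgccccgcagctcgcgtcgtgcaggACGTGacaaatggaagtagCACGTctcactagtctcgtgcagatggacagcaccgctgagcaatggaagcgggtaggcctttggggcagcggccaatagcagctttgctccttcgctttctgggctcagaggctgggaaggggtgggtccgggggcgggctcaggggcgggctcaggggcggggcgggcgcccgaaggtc

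The table of promoter windows matched 32 of the 34 genes. ACGTG stood in the windows of 17 of the 32 (53.1%), beside 29.4% of the 9863 genes with a window and a mean of at least 1 CPM and 21.8% of all 27025 genes. Part of these matches are the E-box CACGTG, to which MYC and related factors bind: 6 of the genes (18.8%) held it, beside 11.7% and 8.09%. When matches inside CACGTG were left out, the motif ACGTG remained in 16 of the 32 genes, beside 20.3% and 15.3%. GCGTG, the other form of the HIF core, stood in 22 (68.8%), beside 55.8% and 35.2%. A gene with more windows has more chances of a match, and the 32 genes had 52 windows, beside 12591 for the 9863 genes. Per window, ACGTG stood in 40.4% of those of the 32 genes and 25.3% of the 12591. For GCGTG these shares were close, at 53.8% and 49.9%. Among the 17 genes with ACGTG, 4 were over 2-fold higher and 2 over 2-fold lower in the spheroid than in the 2D monoculture, with a median log2 ratio of 0.36. Of all 2903 genes with ACGTG and a mean of at least 1 CPM, 10.3% were higher and 19.0% lower, with a median of 0.06. The 14 tested genes with a window and no ACGTG had 2 higher and 1 lower, with a median of 0.66, beside 11.5%, 17.7% and 0.05 for all 6960 such genes. A match of 5 letters is a description of the sequence and not a binding site.

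Glucose entry was carried mainly by Slc2a1, the widespread carrier GLUT1, which stood at 127 CPM in the 2D monoculture, 199 in the 2D co-culture, 248 in the spheroid and 132 in the tumor. As scaled, it was higher in both cultures with fibroblasts, 1.96-fold above the 2D monoculture in the spheroid and 1.57-fold in flat co-culture. In the tumor it was close to the 2D monoculture. This changed with the median ratio of genes of like GC content and length removed. Log2 ratios to the 2D monoculture were then 0.56 in the 2D co-culture, 0.48 in the spheroid and 0.76 in the tumor. Spheroid over tumor, corrected directly, was -0.14. Slc2a3, the high-affinity carrier GLUT3, had 35.7, 41.5, 41.1 and 19.0 CPM in the same order. The cultures lay close together and the tumor was lowest, at a log2 ratio of -0.91 (-0.97 to -0.84) to the 2D monoculture. Hexokinases phosphorylate glucose and so hold it in the cell. Hk1, the constitutive form, had 267 CPM in the 2D monoculture, 225 in the 2D co-culture, 184 in the spheroid and 130 in the tumor, all lower than the 2D monoculture. Hk2, the inducible form of muscle and many tumors, had 135, 134, 65.1 and 171 CPM in the 2D monoculture, 2D co-culture, spheroid and tumor. The spheroid was thus the lowest library for Hk2, 2.07-fold below the 2D monoculture and 2.62-fold below the tumor. Per kb of exon, Hk2 stood at 1.14 (1.12 to 1.16) times Hk1 in the tumor and at 0.306 (0.299 to 0.314) times in the spheroid, with 0.437 in the 2D monoculture and 0.516 in the 2D co-culture.

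The next steps rearrange the hexose and commit it to glycolysis. Gpi1, glucose-6-phosphate isomerase, was highest in the spheroid at 1997 CPM and lowest in the tumor at 662, with the flat cultures at 1121 and 1232. Phosphofructokinase, the main control point of glycolysis, is built of 3 kinds of subunit, and these did not move together. Pfkl, the liver type and the most abundant per kb in every library, had 700 CPM in the spheroid and between 389 and 451 CPM elsewhere. Pfkm, the muscle type, had 151 CPM in the spheroid and between 101 and 104 CPM in the other 3, the tumor with its muscle RNA included. Pfkp, the platelet type, went the other way as scaled: the 2D monoculture had 312 CPM and the tumor 217, while the 2D co-culture and the spheroid had 134 and 133. Its log2 ratio to the 2D monoculture was -1.23 in both cultures with fibroblasts, with intervals of -1.26 to -1.21 in the spheroid and -1.25 to -1.20 in the 2D co-culture. The share of Pfkp in the phosphofructokinase sum per kb went from 32.0% in the 2D monoculture and 26.7% in the tumor to 17.6% (2D co-culture) and 11.5% (spheroid). Summed per kb, phosphofructokinase itself stood at 1.18-fold of the 2D monoculture in the spheroid, so that the subunits differed more than their total. Log2 ratios to the 2D monoculture were also taken with the median ratio of genes of like GC content and length removed. In the spheroid they were then -0.03 for Pfkl, 0.09 for Pfkm and -0.99 for Pfkp. In the tumor they were 0.85 for Pfkl, 0.75 for Pfkm and -0.21 for Pfkp.

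The PFKFB enzymes make and break fructose 2,6-bisphosphate, the strongest activator of phosphofructokinase. Pfkfb3, whose kinase activity far exceeds its phosphatase activity, had 65.4 CPM in the spheroid and 56.9 in flat culture with fibroblasts, while the 2D monoculture and the tumor had 44.8 and 44.9. Pfkfb4 had 17.3 CPM in the spheroid, 14.1 in the tumor, 10.1 in the 2D monoculture and 8.23 in the 2D co-culture. Both were highest in the spheroid as scaled, within 2-fold of the 2D monoculture. With the median ratio of genes of like GC content and length removed, the log2 ratio of spheroid over tumor was -0.004 for Pfkfb3 and -0.77 for Pfkfb4. Pfkfb2, the heart type, was lowest there, at 12.7 CPM against 20.1 in the 2D co-culture, 29.8 in the 2D monoculture and 30.3 in the tumor. Exons of Pfkfb2 share 1395 bases with those of 2 other genes, Yod1 among them, and the sources used here do not say whether the counting used strand. The same limit holds for shorter overlaps in other genes described here, among them Pfkp (748 bases), Pdha1 (603), Gpi1 (356), Pkm (334), Mpc1 (187) and Slc2a1 (105). Pfkfb1, the liver and muscle type, was low in the cultures, at 0.242 to 0.699 CPM, and stood at 3.09 CPM (2.83 to 3.37) in the tumor. The sum of the 4 genes per kb lay between 17.0 and 19.7 CPM per kb in all 4 libraries.

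Of the summed steps other than enolase, aldolase stood furthest above the 2D monoculture in the spheroid as scaled, at 2.56-fold. Triosephosphate isomerase stood at 1.61-fold, less than the carriers of lactate (2.06-fold). Aldoa, the main aldolase of most tissues, had 4581 CPM in the 2D monoculture, 4422 in the 2D co-culture, 11688 in the spheroid and 3558 in the tumor. The spheroid stood apart from the other 3, at a log2 ratio of 1.35 (1.35 to 1.36) to the 2D monoculture and 1.72 (1.71 to 1.72) to the tumor. Aldoc, the brain form, had 36.0, 22.2, 119 and 65.2 CPM in the same order. It was 3.31-fold higher in the spheroid and 1.81-fold higher in the tumor than in the 2D monoculture, and lowest in the 2D co-culture. Aldoc was a small part of the step, at most 1.55% of the aldolase sum per kb, in the tumor. Tpi1, triosephosphate isomerase, had 4008 CPM in the spheroid, 2958 in the tumor, 2495 in the 2D monoculture and 2326 in the 2D co-culture.

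In the later steps of the pathway, which make ATP, the genes went different ways. Gapdh, glyceraldehyde-3-phosphate dehydrogenase, had 440 CPM in the 2D monoculture, 810 in the 2D co-culture, 809 in the spheroid and 611 in the tumor. It was lowest in B16F10 cells alone, and the 2D co-culture and the spheroid did not differ beyond counting error, with an interval of the log2 ratio from -0.01 to 0.01. Its level is uncertain, since 79 other annotated genes hold stretches of at least 150 bases that are at least 95% identical to its transcript and cover 88.0% of it. Of the other genes described here, near-identical copies cover between 50.2% and 85.6% of the transcripts of Gpi1, Ldha, Pkm, Pgk1, Ldhb and Eno1. Pgk1, phosphoglycerate kinase, the first enzyme to make ATP, had 1763 CPM in the 2D monoculture, 1491 in the 2D co-culture, 1296 in the spheroid and 2472 in the tumor. It was highest in the tumor and lowest in the spheroid, 1.91-fold below the tumor. Pgam1, phosphoglycerate mutase, had 1329, 1593, 1669 and 789 CPM in that order, the tumor being lowest. Bpgm, which makes 2,3-bisphosphoglycerate, was the steadiest of the genes, at 58.1 to 64.3 CPM.

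Among single genes of the pathway proper, the enolase gene Eno2 showed the widest range. Eno2, the neuronal form, had 59.5 CPM in the 2D monoculture, 26.6 in the 2D co-culture, 216 in the spheroid and 6.59 in the tumor. The spheroid exceeded the 2D monoculture 3.64-fold, the 2D co-culture 8.14-fold and the tumor 32.8-fold. The common form cannot be read from the row Eno1, which held 104 to 156 reads, while the row of its near-identical copy Eno1b held 510633 to 628875. Eno1b was abundant in each library, at 3145 to 4618 CPM, and its order was spheroid (4618), 2D co-culture (4526), 2D monoculture (3749) and tumor (3145). Set against Eno1b per kb, Eno2 was a small part of enolase in each library, with a ratio of 0.0315 in the spheroid, 0.0107 in the 2D monoculture, 0.00394 in flat co-culture and 0.00141 in the tumor. The sum of Eno1, Eno2 and Eno1b varied far less than Eno2, from 1678 CPM per kb in the tumor to 2538 in the spheroid. Pkm, pyruvate kinase of muscle and tumors, stood at 5405 CPM in the 2D monoculture, 4566 in the 2D co-culture, 4393 in the spheroid and 3588 in the tumor. Its 2 splice forms, PKM1 and PKM2, are 1 row in the table and cannot be told apart.

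**Figure D3:**
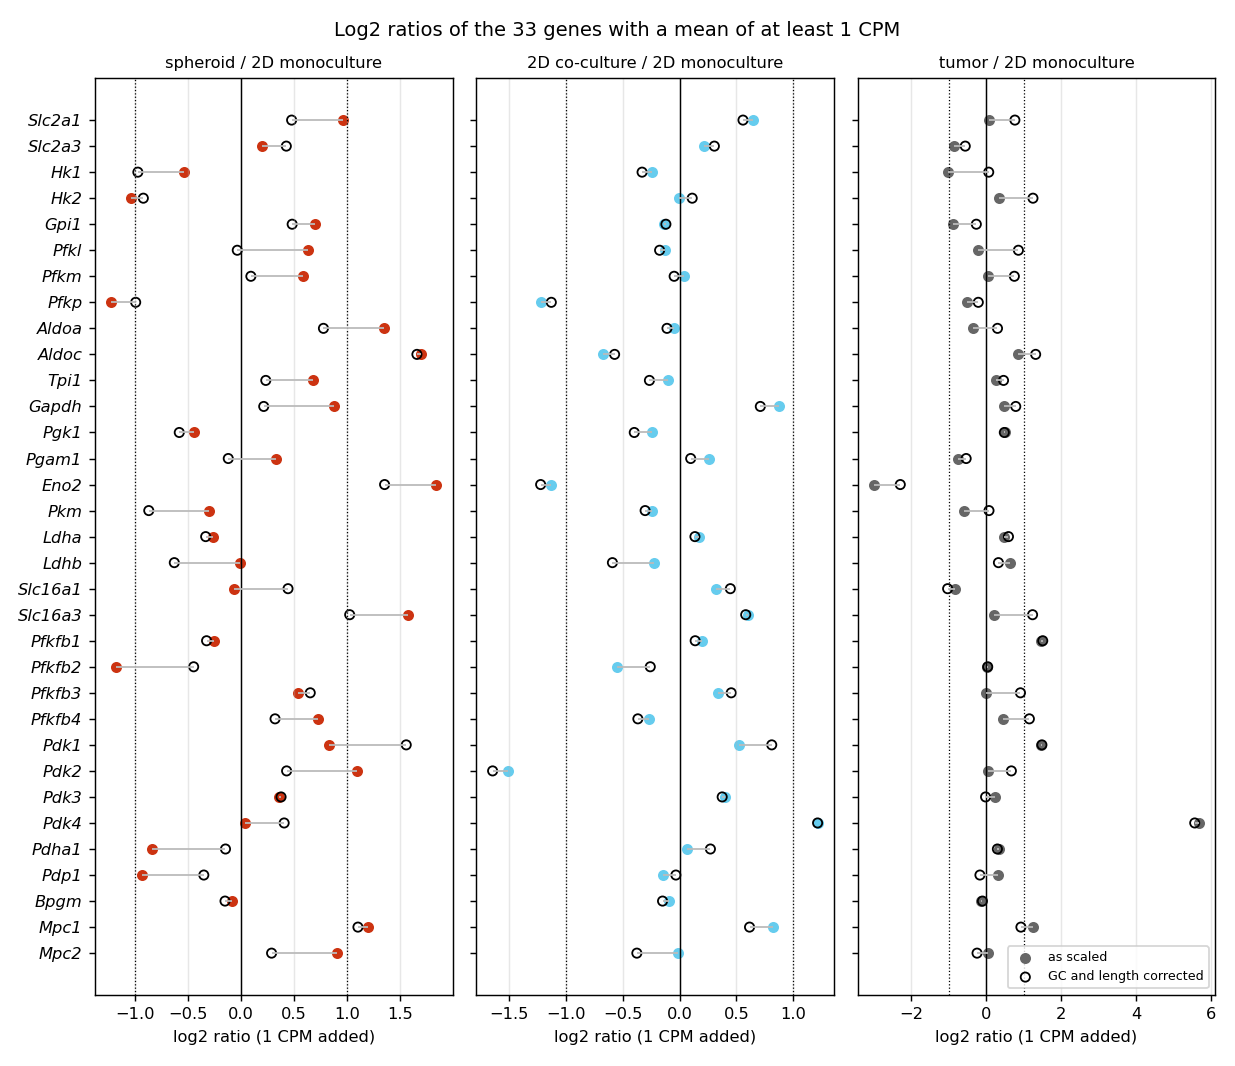
Log2 ratios to the 2D monoculture, with 1 CPM added, of the 33 genes that reached a mean of 1 CPM, in pathway order; dotted lines mark 2-fold. Filled points are as scaled, and open points have the median ratio of genes of like GC content and length removed. Eno2, Aldoc, Slc16a3 and Mpc1 stay right of the upper line in the spheroid, while Aldoa and Pdk2 move inside it.

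Lactate genes separated into an enzyme that was low and a carrier that was high in the spheroid. Ldha, the subunit that favors lactate formation, had 2573 CPM in the 2D monoculture, 2892 in the 2D co-culture, 2138 in the spheroid and 3596 in the tumor. The spheroid was lowest, at a log2 ratio of -0.27 (-0.27 to -0.26) to the 2D monoculture and -0.75 (-0.76 to -0.74) to the tumor. Ldhb, the heart subunit that favors pyruvate formation, had 158, 135, 157 and 245 CPM in that order. Its ratio to Ldha per kb stayed between 0.0681 (2D co-culture) and 0.107 (spheroid), so that Ldha made up at least 90.3% of the sum in every library. Slc16a3, the lactate exporter MCT4, had 155 CPM in the 2D monoculture, 236 in the 2D co-culture, 467 in the spheroid and 180 in the tumor. It was higher in both cultures with fibroblasts and 3.00-fold higher in the spheroid. Slc16a1, the carrier MCT1, which moves lactate in either direction, had 132, 166, 126 and 74.4 CPM. The balance of the carriers per kb, Slc16a3 over Slc16a1, was 1.17 (1.15 to 1.19) in the 2D monoculture, 1.42 (1.39 to 1.44) in the 2D co-culture, 3.68 (3.61 to 3.74) in the spheroid and 2.41 (2.36 to 2.46) in the tumor. Their chaperone Bsg, basigin, had 1692 CPM in the spheroid and between 1104 and 1220 CPM in the other libraries.

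The pyruvate carrier of the inner mitochondrial membrane is a pair of Mpc1 and Mpc2. Mpc1 had 23.7 CPM in the 2D monoculture, 42.6 in the 2D co-culture, 55.7 in the spheroid and 57.1 in the tumor, so that it was lowest in the library of B16F10 cells alone and over 2-fold higher in the spheroid and the tumor. Mpc2 had 53.9, 53.5, 102 and 56.1 CPM and was highest in the spheroid, the other 3 libraries lying close together. The ratio of Mpc2 to Mpc1 per kb went from 3.26 (3.13 to 3.40) in the 2D monoculture to 1.41 (1.37 to 1.45) in the tumor.

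Inside the mitochondrion, the pyruvate dehydrogenase kinases switch the complex off and its phosphatases switch it on. Pdha1, which carries the phosphorylated sites, had 139 CPM in the 2D monoculture, 145 in the 2D co-culture, 77.2 in the spheroid and 177 in the tumor. Pdp1, the phosphatase, had 10.9, 9.73, 5.20 and 13.6 CPM, again lowest in the spheroid. Pdk1, the kinase that HIF-1 is known to induce, had 51.9, 74.9, 93.3 and 145 CPM, and so was lowest in the 2D monoculture and 2.80-fold higher in the tumor. The ratio of Pdk1 to Pdp1 per kb, a kinase against the opposing phosphatase, was 4.16 (3.94 to 4.39) in the 2D monoculture, 6.69 (6.29 to 7.13) in the 2D co-culture, 15.6 (14.5 to 16.8) in the spheroid and 9.28 (8.89 to 9.70) in the tumor. In the spheroid a higher Pdk1 and a lower Pdp1 both entered this ratio. The low Pdha1 and Pdp1 of the spheroid depended on GC content: with genes of like GC content and length set to a median ratio of 0, the log2 ratio to the 2D monoculture went from -0.84 to -0.15 for Pdha1 and from -0.94 to -0.35 for Pdp1. Against the tumor, Pdha1 went from -1.18 to -0.46 and Pdp1 from -1.24 to nearly 0, so that neither stayed past 2-fold. Corrected in the same way, Pdk1 stood at 1.56 in the spheroid and 1.48 in the tumor against the 2D monoculture. For spheroid over tumor it was 0.15, so the lead of the tumor did not remain. Pdk2, the widespread kinase, had 8.89, 2.47, 20.1 and 9.17 CPM, with the spheroid 8.13-fold above the 2D co-culture. Pdk3 varied little, from 39.4 CPM in the 2D monoculture to 52.1 in the 2D co-culture.

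Pdk4, the kinase of fasting muscle, heart and fat, was abundant in the tumor library alone. It had 16 reads in the 2D monoculture, 181 in the 2D co-culture, 19 in the spheroid and 9009 in the tumor, or 0.112, 1.58, 0.140 and 55.5 CPM. The log2 ratio of the tumor to the 2D monoculture was 8.95 (8.25 to 9.76), and Pdk4 made up 22.7% of the kinase sum per kb in the tumor and at most 1.12% in the cultures. Markers of muscle, fat and fibroblasts were high in the same library, and their part in the value was not tested. The 2D co-culture had 2.85% of the tumor's Pdk4 level, while it had 0.220% of its muscle, 0.161% of its adipocyte and 24.9% of its fibroblast marker level. The spheroid had 0.251% of the Pdk4 level, 0.274% of the muscle and 1.34% of the fibroblast marker level. In the tumor library Pdk1 made up 39.9% of the kinase sum per kb.

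**Figure D4:**
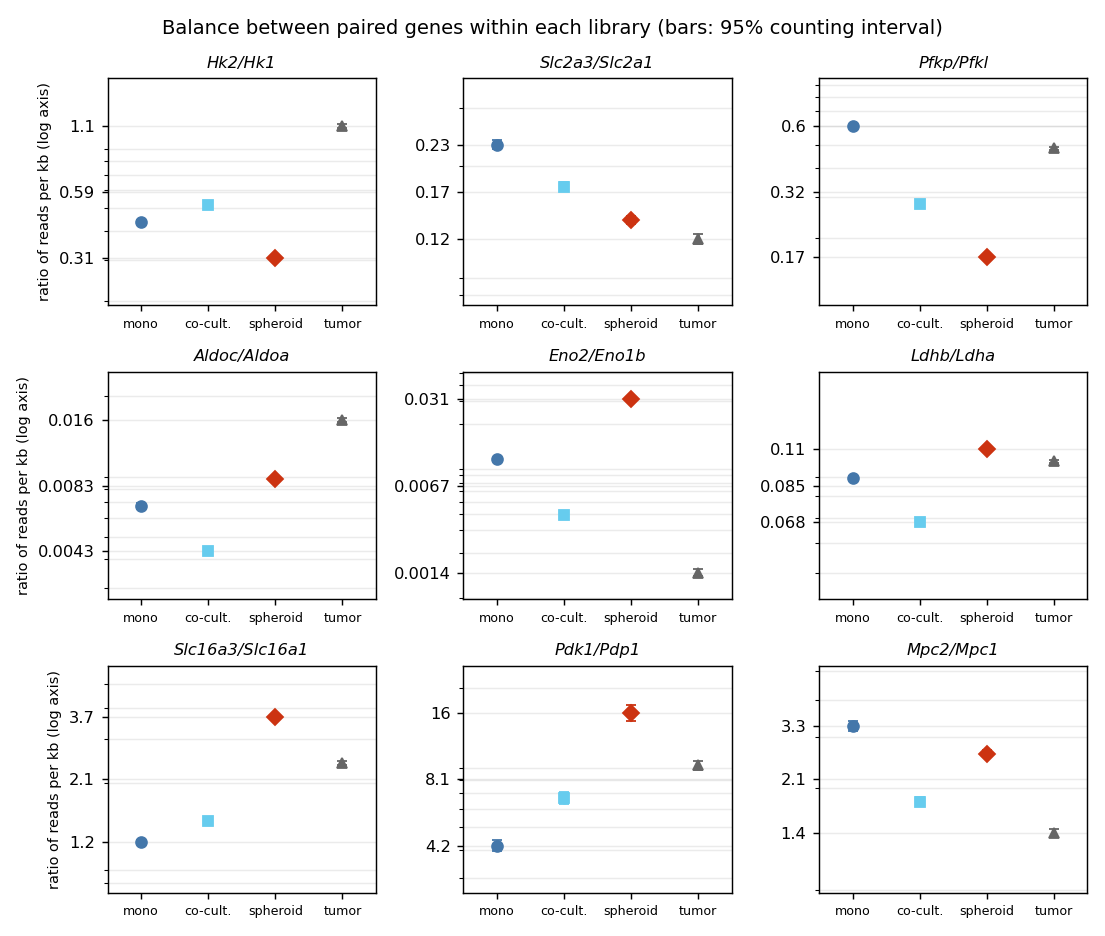
Ratio of reads per kb of exon of 2 genes within each library (log axes with different ranges), 1 point per library; bars are 95% counting intervals. Scaling between libraries cancels in these ratios, but differences in GC content between the 2 genes do not. Slc16a3/Slc16a1 and Pdk1/Pdp1 are highest in the spheroid, Hk2/Hk1 is highest in the tumor and lowest in the spheroid, and Pfkp/Pfkl runs from 0.602 in the 2D monoculture to 0.165 in the spheroid.

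Correction for GC content and length changed some of these balances. The log2 change of Slc16a3/Slc16a1 from the 2D monoculture went from 1.65 to 0.59 in the spheroid and from 1.04 to 2.27 in the tumor, which then was highest. Slc16a3 has a GC content of 56.6% and Slc16a1 of 42.9%. Hk2/Hk1 remained highest in the tumor (1.19), while the spheroid went from -0.52 to 0.04 and was no longer below the 2D monoculture. Pfkp/Pfkl went from -1.87 to -0.97 in the spheroid and from -0.31 to -1.07 in the tumor. Pdk1/Pdp1 remained highest in the spheroid, at 2.05 against 1.64 in the tumor.

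Set directly against the 2D co-culture, which has the same fibroblasts in flat culture, the spheroid was over 2-fold higher in 4 of 33 genes and over 2-fold lower in 2, beside 9.54% and 8.46% of all genes and 18.0% in either direction. The higher genes were Aldoa, Aldoc, Eno2 and Pdk2 and the lower ones Hk2 and Pdk4. With the median ratio of genes of like GC content and length removed, Aldoa (0.88), Hk2 (-0.90) and Pdk4 (-0.95) came inside 2-fold, so that no lower gene was left. For Pdk4 this rests on the 1 CPM added, which shrinks the ratio of a gene so low in both libraries. With nothing added, the spheroid had 0.251% of the tumor's Pdk4 level and the 2D co-culture 2.85%. The median log2 ratio was 0.07, with -0.01 for all genes.

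Set against the tumor, the spheroid was over 2-fold higher in 7 genes (Slc2a3, Gpi1, Aldoa, Pgam1, Eno2, Slc16a3 and Pdk2) and over 2-fold lower in 6 (Hk2, Pfkfb1, Pfkfb2, Pdk4, Pdha1 and Pdp1), beside 26.8% and 27.6% of all genes and 54.4% in either direction. The remaining 20 of 33 genes lay within 2-fold, and the median log2 ratio was 0.40, with 0.08 for all genes. This split depended on the scaling, with 4 higher and 9 lower genes under total counts and 4 higher and 7 lower under upper quartiles. With the median ratio of genes of like GC content and length removed, 3 were higher, 4 were lower and the median was -0.14. Slc16a3 then went from 1.37 to -0.13 and Pdk2 from 1.05 to -0.19, and Gpi1 (0.66), Aldoa (0.60) and Pgam1 (0.50) came inside 2-fold. Shares of all genes under these other settings are not given here.

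GC content went along with these contrasts among the 33 genes as it did across all genes. The 14 genes that were highest in the spheroid had a median GC content of 54.3% (50.2 to 57.1), and the 11 that were highest in the tumor had 48.0% (39.2 to 53.0). After the removal of the median ratio of genes of like GC content and length, 5 genes were over 2-fold higher in the spheroid than in the 2D monoculture, namely Aldoc at a log2 ratio of 1.66, Pdk1 at 1.56, Eno2 at 1.36, Mpc1 at 1.11 and Slc16a3 at 1.03. None was over 2-fold lower, with Pfkp at -0.99, Hk1 at -0.97 and Hk2 at -0.92. Aldoa came to 0.78 and Pdk2 to 0.43. The share of all genes past 2-fold after this removal is not given here. In the tumor, Hk2, Aldoc, Slc16a3 and Pfkfb4 passed 2-fold over the 2D monoculture only after this step, at 1.24, 1.31, 1.23 and 1.15, and Hk1 went from -1.03 to 0.064. Whether GC content reflects library preparation or the genes themselves was not tested.

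**Figure D5:**
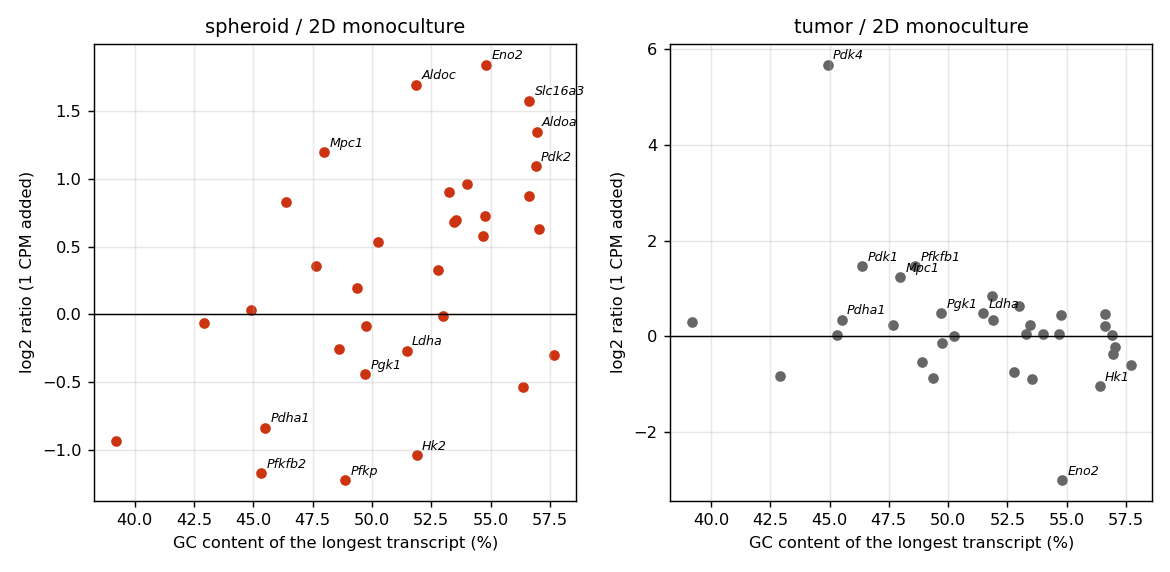
Log2 ratio to the 2D monoculture (1 CPM added) of the 33 genes against the GC content of their longest transcript in %, for the spheroid (left) and the tumor (right), 1 point per gene. In the spheroid Pfkfb2 and Pdha1 lie low at 45.3% and 45.5% GC, while Eno2, Slc16a3, Aldoa and Pdk2 lie high at 54.8% to 56.9%; Mpc1 at 48.0% and Pdk1 at 46.4% lie high, and Hk1 at 56.4% and Pkm at 57.7% low, against that trend.

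Genes of neighboring pathways, taken from lists made by pathway, were measured in the same libraries. Of 15 other isoenzymes and carriers with a mean of at least 1 CPM, 5 were over 2-fold higher in the spheroid than in the 2D monoculture and 1 lower, beside 11.2% and 17.9% of all genes. Slc2a4, the insulin-regulated carrier GLUT4, had 1.65 CPM in the 2D monoculture, 11.8 in the 2D co-culture, 15.7 in the spheroid and 14.4 in the tumor. Slc2a8, an intracellular carrier, had 90.8 CPM in the spheroid and between 8.75 and 20.3 elsewhere. In the tumor 6 of the 15 were higher and 3 lower, beside 14.8% and 18.2% of all genes. The muscle forms were among the higher ones, Eno3 with 271 CPM against 37.6 to 87.0 in the cultures and Pgam2 with 43.7 against 2.07 to 6.81, and the muscle markers Acta1 and Myh4 stood at 1360 and 1336 CPM in that library.

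Among 11 genes of the pyruvate dehydrogenase complex and of pyruvate use, 1 was over 2-fold higher in the spheroid than in the 2D monoculture and 4 were lower, again beside 11.2% and 17.9% of all genes. The higher one was Pck2, mitochondrial phosphoenolpyruvate carboxykinase, with 344 CPM in the spheroid, 174 in flat co-culture, 70.3 in the 2D monoculture and 30.3 in the tumor. Dld, a subunit of the complex, had 122 CPM in the spheroid and 188 to 330 elsewhere, and Me2, a mitochondrial malic enzyme, had 22.1 against 55.0 to 70.5. Dlat, another subunit, was instead lowest in the tumor, at 101 CPM against 272 to 316. Pck1, the cytosolic carboxykinase of liver, kidney and fat, had 56.9 CPM in the tumor and at most 0.131 CPM in the cultures, and the adipocyte marker Adipoq had 117 CPM in the tumor.

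The routes that branch off glucose-6-phosphate also split. In the pentose phosphate pathway 1 of 8 genes was over 2-fold higher and 1 lower in the spheroid than in the 2D monoculture, which for all genes, here and in the lists that follow, were 11.2% and 17.9%. G6pdx, its first enzyme, was highest in the 2D monoculture at 361 CPM, with 163 in the 2D co-culture, 131 in the spheroid and 90.4 in the tumor, whereas H6pd, its counterpart in the endoplasmic reticulum, had 202 CPM in the spheroid and 38.6 to 100 elsewhere. Among the glycogen genes, Pygm, muscle glycogen phosphorylase, was over 2-fold higher in the spheroid, at 80.8 against 6.02 CPM. Of 5 hexosamine genes, Gfpt1, which feeds that pathway, was over 2-fold lower, at 78.3 against 179 CPM, and of 6 genes of triose side reactions Gpd2, mitochondrial glycerol-3-phosphate dehydrogenase, was, at 18.1 against 50.8 CPM. Among genes that oppose glycolysis, G6pc3 and Tigar passed the filter and neither was past 2-fold in the spheroid. Txnip, which glucose induces and which curbs glucose uptake, had 212 CPM in the spheroid, 171 in the tumor, 78.6 in the 2D monoculture and 28.8 in the 2D co-culture.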

How the data were processed

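Poly(A) RNA of the 4 samples was sequenced in pairs of reads, and the submitters' processing notes name Trimmomatic, STAR, featureCounts and the mouse build mm10, without versions. The authors deposited whole-number read counts per gene without normalization. Strand and the handling of reads with several matches are not given here in any source used.

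The members and all gene lists were chosen with earlier results of these data known. Counts were scaled to CPM by the TMM method of edgeR 4.0.16 in R 4.3.3, and other steps used Python 3.11.15, numpy 2.4.6, pandas 2.3.3, scipy 1.17.1 and matplotlib 3.10.9. Intervals are exact Clopper-Pearson intervals, or exact binomial intervals of the reads of both libraries for a ratio, at 95%. Log2 ratios of single genes use no pseudocount, whereas counts past 2-fold, medians and ratios corrected for GC content add 1 CPM and take genes whose mean over the libraries is 1 CPM or more. Each condition has 1 library, so no test was made. Totals of 118896900 to 150028663 reads put the 3 reads that a count of 0 allows at 0.0185 to 0.0262 CPM.

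Exon lengths and GC content came from GENCODE annotation of the same build and covered all 34 members and 97.9% of the genes tested. The correction removed the median log2 ratio of each of 10 by 10 classes of GC content and length. Near-identical copies were found with BLAST 2.17.0. All 34 members are reported; a gene of another list is named where its mean is at least 10 CPM and its ratio is the highest or lowest of its list in 1 of 4 comparisons, and Bsg was named after its values were seen. A result that this rule would name is not reported here. Alternatives were scaling by total counts, by upper quartiles or by DESeq2 1.42.0, a pseudocount of 0.1 CPM, no filter or one of 10 CPM, a fold of 1.5, a counting interval wholly past 2-fold, summing per gene without length and, added after the data were seen, Eno1 and Eno1b summed and steps and balances corrected for GC content and length. The calculation was checked on simulated counts. NOISeq, which the study used, was not run.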

Additional observations from a re-analysis of the deposited data

How the results depend on the processing

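No paired analysis was possible because the design has only 1 library per condition. With genes of like GC content and length set to a median ratio of 0, no gene was over 2-fold lower in the spheroid than in the 2D monoculture or the 2D co-culture (0 in place of 3 and of 2), 7 in place of 4 were higher in the tumor than in the 2D monoculture, and 3 in place of 7 were higher in the spheroid than in the tumor. That correction also reversed Hk1 in the tumor over the 2D monoculture (0.064), and Slc16a3 (-0.13) and Pdk2 (-0.19) in the spheroid over the tumor, and there the balances Pfkp/Pfkl (0.17), Pdk1/Pdk2 (0.26) and Pdk3/Pdk2 (0.74); the cause was not tested. DESeq2 size factors, total counts and upper quartiles each left 1 gene in place of 2 lower in the tumor than in the 2D monoculture, with 4, 5 and 5 higher. For spheroid over tumor, total counts and upper quartiles each left 4 higher. For spheroid over 2D monoculture the split was 5 higher and 4 lower under total counts and 8 and 2 under upper quartiles. These scalings move every ratio of a comparison alike, by -0.36 (spheroid over tumor, total counts) to 0.25 (tumor over 2D monoculture, upper quartiles), and turned the sign only of ratios up to 0.30, among them Pkm, Pfkfb4, Pdk3 and Bpgm for spheroid over tumor under total counts. At 1.5-fold, by construction more genes counted: 14 higher and 5 lower in the spheroid and 5 higher in the 2D co-culture against the 2D monoculture, 7 lower in the tumor, 10 higher and 5 lower for spheroid over 2D co-culture, and 12 higher and 11 lower for spheroid over tumor. Counts under the alternatives are given without the share of all genes, so they are not read as results about the genes. The counts kept within 1.5 times with the other pseudocount, filters, the interval rule and Eno1b added. Of the values of single genes, steps and balances under the alternatives run for each, 1490 stayed, 81 moved and 6 reversed, the GC and length correction giving 74 and 6 of the last 2 counts. Steps other than enolase and balances without Eno1 were run under it after the data were seen, steps otherwise only without length and balances under no other. Read counts of Pdk4 and Pfkfb1 were low in the cultures, which widens their counting intervals, and 1 library per condition limits all differences. The 1 CPM added also shrinks ratios of these genes, among them Pdk4 in the spheroid over the 2D co-culture.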
